A study of Mus musculus with 2 samples.

Results

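The interferon-inducible p200 genes, also called Ifi200 or PYHIN genes, lie side by side on mouse chromosome 1. Described here are Ifi203, Ifi204, Ifi205, Ifi207, Ifi208, Ifi209, Ifi211, Ifi213 and Mndal, which were taken by symbol from the deposited gene table and are 9 of its 54532 genes. The rule uses their names, not their values. Both groups of mice were ApoE-/- on a C57BL/6J background, labelled as 6 weeks of age. Apolipoprotein E, whose gene this genotype disrupts, helps clear lipoproteins from the blood. Macrophages were sorted from the aorta on the surface proteins F4/80 and CD11b, and the cells of 5 mice went into 1 RNA library per group. The PDR group (Phlegm-Dampness Retention syndrome) ate a high-fat diet for 4 weeks. The SKYD group (Spleen and Kidney Yang Deficiency syndrome) received propylthiouracil, a drug that blocks the making of thyroid hormone, at 10 mg/kg per day by gavage for 4 weeks, followed by 2 weeks of high-fat diet. Syndrome, drug, diet time and age at sampling therefore cannot be told apart, and no difference below has a replicate check.

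The p200 proteins carry a HIN domain, which binds DNA, a pyrin domain, through which they join other proteins, or both. Their genes are switched on by type I and type II interferons in macrophages and other blood cells. Members of the family sense DNA in the cytosol or the nucleus, restrain cell growth and alter the transcription of other genes. The best known relative, Aim2, starts the inflammasome, the complex that activates caspase-1. The comparison of PDR with SKYD asks how the level of each gene of the cluster differed between macrophages of the 2 dyslipidaemia models.

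Values are FPKM, fragments per kilobase of gene scaled to a library size. FPKM multiplied by gene length gave whole numbers of reads for every gene, which totalled 23086889 for PDR and 25427863 for SKYD. The library sizes behind FPKM, as its steps give them, were 23487992 for PDR and 24993633 for SKYD, which is 1.02 times the reads on genes for PDR and 0.983 times for SKYD. These 2 ratios multiply to 1 within rounding, as a pair of normalization factors would, and the sources used here name no such factor for FPKM, which the study's methods define by mapped fragments. Differences are log2(FPKM + 1) in PDR minus SKYD and understate the change of low genes. A ratio of FPKM is called a fold. Intervals are 95% and exact, they come from the read numbers, and they cover counting error only. A gene counted as tested when its mean FPKM was at least 1, which held for 10399 genes and for all 9 members.

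The 9 members span 465.527 kb of chromosome 1 in GRCm38, from the left end of Ifi213 (ENSMUSG00000073491) at 173566283 to the right end of Ifi205 (ENSMUSG00000054203) at 174031810. Ifi209 (ENSMUSG00000043263, 173630917 to 173647928) and Ifi208 (ENSMUSG00000066677, 173673675 to 173698395) are on the plus strand, and the other 7 are on the minus strand. Then follow Ifi207 (ENSMUSG00000073490, 173723427 to 173741747) and Ifi204 (ENSMUSG00000073489, 173747293 to 173766943). The transcribed region of Mndal (ENSMUSG00000090272, 173849126 to 173942491) runs across Ifi211 (ENSMUSG00000026536, 173896345 to 173913046) and part of Ifi203 (ENSMUSG00000039997, 173920407 to 173942672) on the same strand. Of these overlaps, 37 exonic bases are shared between Ifi203 and Mndal, which is 0.552% of Ifi203. For Mndal, 155 exonic bases (4.27%) are shared with Ifi203 or with Gm38050. Exons of Ifi211 and of the remaining members overlap no other exon.

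The members are copies of one another, and their transcripts share sequence to unequal degrees. Of all 100-base windows in the transcripts of Ifi211, 56.9% also occur in a transcript of another gene, and 37.2% occur in Ifi205. The share was 16.9% for Ifi209, all with Ifi214, and 15.0% for Ifi205, all of it with Ifi211. It was 10.7% for Ifi204, 6.38% for Mndal, 5.92% for Ifi208, 3.30% for Ifi213, 2.84% for Ifi203 and 0.790% for Ifi207. Reads from such windows could be lost or placed on the wrong copy, so the values of Ifi211 are the least certain in this respect and those of Ifi207 the least affected.

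Promoters of 8 members, all but Ifi204, were matched by symbol in RefSeq sequences of GRCm38.p6 that run from 250 bases before to 50 bases after a gene's start. The interferon-stimulated response element, which is bound by interferon regulatory factors, was searched on both strands by its core GAAANNGAAA. A match was present in 7 of the 8 members and, counted in the same way, in 3.99% of 27025 genes with a promoter, or in 3.44% of 32851 single promoters. In the list of interferon-induced antiviral genes, 11 of 21 with a promoter sequence had one, and in the macrophage marker list 0 of 9 did. Among other p200 genes 2 of 4 had one, and among interferon ligands 7 of 14. The counts were 2 of 16 for nucleic acid sensing, 1 of 11 for interferon receptors and transducers, 0 of 8 for the AIM2 inflammasome and 0 of 10 for growth control partners. The matched stretch is printed 5′ to 3′ on the strand of the gene, because 7 members hold its core. Capitals mark the core. For Ifi209, which has no match, the stretch most like the others is given with the aligned bases in capitals.
Ifi213 (chr1:173599316-173599355, minus strand): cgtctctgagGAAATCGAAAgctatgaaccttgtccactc
Ifi208 (chr1:173673597-173673636, plus strand): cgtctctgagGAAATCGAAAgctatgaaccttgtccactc
Ifi207 (chr1:173741821-173741860, minus strand): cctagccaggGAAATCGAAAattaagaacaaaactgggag
Mndal (chr1:173880194-173880233, minus strand): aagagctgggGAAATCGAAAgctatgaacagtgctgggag
Ifi203 (chr1:173942498-173942537, minus strand): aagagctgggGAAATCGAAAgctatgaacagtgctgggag
Ifi211 (chr1:173913054-173913093, minus strand): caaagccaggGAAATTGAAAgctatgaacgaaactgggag
Ifi205 (chr1:174031860-174031899, minus strand): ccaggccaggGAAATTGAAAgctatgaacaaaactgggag
Ifi209 (chr1:173630770-173630809, plus strand): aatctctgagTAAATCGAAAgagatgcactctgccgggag

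The stretches of Ifi213 and Ifi208 were the same at all 40 bases, as were those of Mndal and Ifi203. Ifi211 and Ifi205 were the same at 37 bases. The printed cores lay between 35 and 134 bases before a RefSeq start. A second match, on the opposite strand, was present in Ifi205 as TTTCACTTTC after the start and in a second promoter of Mndal as TTTCTCTTTC, and a second promoter of Ifi203 had none. The stretch of Ifi209 differed from the core by G1T, counted from 1 at the 5′ end of the core, and was the same as that of Ifi214, a further p200 gene, at 36 of 40 bases. The Ifi209 stretch was looked for after the matches were seen. The core of the site of PU.1, a transcription factor of macrophages, GAGGAAGT on either strand, was present in 0 of the 8 members. Counted in the same way it was present in 3.69% of 27025 genes, or in 3.20% of single promoters. A match is a description of letters, not a bound site, and the absence of one says nothing of the factor.

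Together the 9 members had 21974 PDR reads, which is 0.0952% of all reads on genes (95% CI 0.0939 to 0.0964). The SKYD reads numbered 15904, or 0.0625% (95% CI 0.0616 to 0.0635). Their summed FPKM was 269 in PDR and 181 in SKYD, a fold of 1.48. By reads relative to the sizes behind FPKM the fold was 1.47 (95% CI 1.44 to 1.50), and relative to the reads on genes, a scaling added after the data were seen, it was 1.52 (95% CI 1.49 to 1.55). The cluster as a whole was thus more abundant in the PDR library, but its genes did not differ by one common factor.

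**Figure D1:**
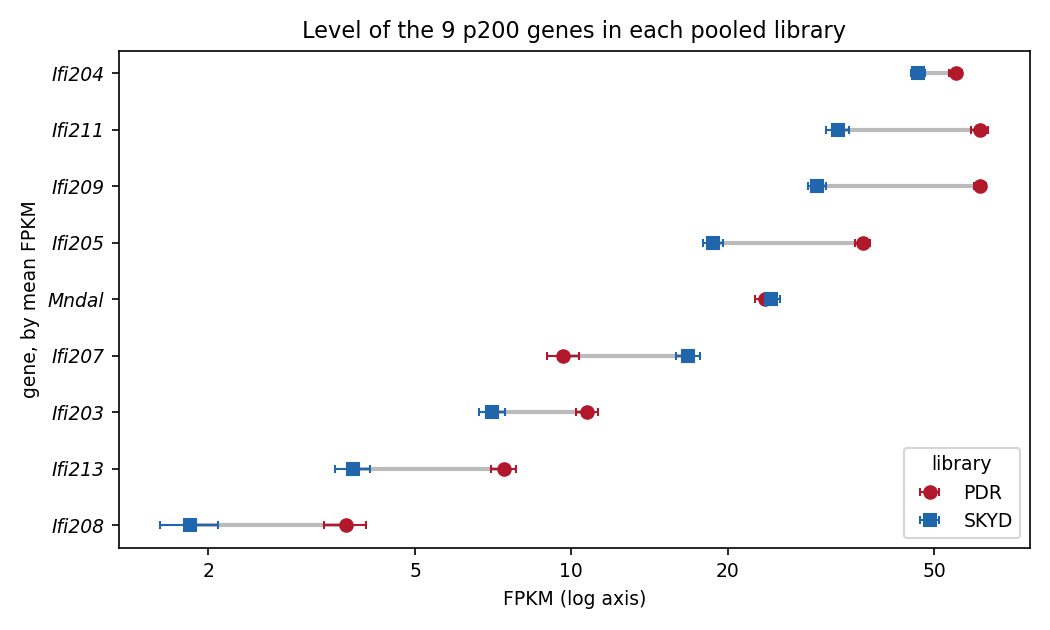
FPKM on a log axis of each member for PDR (red circles) and SKYD (blue squares), ordered by mean FPKM, with exact 95% Poisson intervals of the reads. The symbols are about equally far apart for Ifi211, Ifi209, Ifi205, Ifi213 and Ifi208, nearly meet for Mndal, and are in the opposite order for Ifi207.

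Levels per length spread over more than a factor of 10 within each library. In PDR the order from high to low was Ifi209, Ifi211, Ifi204, Ifi205, Mndal, Ifi203, Ifi207, Ifi213 and Ifi208. In SKYD it was Ifi204, Ifi211, Ifi209, Mndal, Ifi205, Ifi207, Ifi203, Ifi213 and Ifi208. Neighbours in the SKYD order had intervals that did not overlap. In PDR the intervals overlapped for Ifi209 (59.7 to 63.1 FPKM) and Ifi211 (58.9 to 63.6) and for Ifi203 (10.2 to 11.2) and Ifi207 (8.96 to 10.3). The top of the cluster therefore passed from Ifi204 in SKYD to Ifi209 and Ifi211 in PDR, while Ifi213 and Ifi208 were lowest in both libraries. By share of the cluster's summed FPKM, Ifi204 made up 25.7% in SKYD and 20.5% in PDR. For Ifi209 the share was 16.4% in SKYD and 22.8% in PDR, and for Ifi207 it was 9.25% and 3.58%.

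Counted by direction, 7 members were higher in PDR and 2 were lower, Ifi207 and Mndal, and after centring on the macrophage markers or scaling to the reads on genes Mndal was higher as well. More than 2-fold higher in PDR was 1 member, Ifi209, against 7.38% of all 10399 tested genes (767). More than 2-fold higher in SKYD were 0 members, against 6.91% of tested genes (719). The count of members past 2-fold was thus close to the background share with FPKM as deposited. Centred on the macrophage markers, 6 members were past 2-fold higher in PDR, against 26.7% of tested genes. The median difference of the members was 0.72, and that of all tested genes was -0.0035. Above 0 were 49.6% of all tested genes. All 9 members reached 1 FPKM in both libraries, while 222 of the 767 genes and 293 of the 719 were below 1 FPKM in one library and were tested only through the other.

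**Figure D2:**
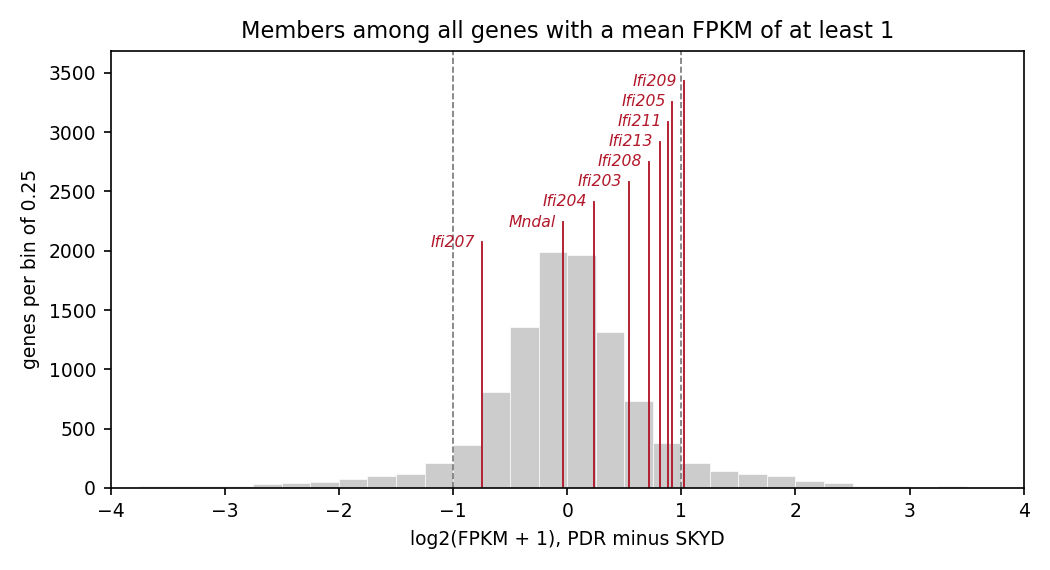
Number of tested genes by difference in log2(FPKM + 1), PDR minus SKYD, in bins of 0.25 (grey bars, differences beyond 4 in either direction not drawn), with each member as a red line and dashed lines at 2-fold. Most red lines stand right of the centre and only Ifi209 passes the dashed line, while Mndal is at the centre and changes sign after centring on the macrophage markers or scaling to the reads on genes.

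Ifi204, the most abundant member by mean FPKM, encodes p204, a protein of nucleus and cytosol that is related to human IFI16, takes part in sensing DNA through STING and is induced as monocytes mature into macrophages. Its level was 55.1 FPKM in PDR (4606 reads) and 46.6 FPKM in SKYD (4150 reads). The log2 difference was 0.24 (95% CI 0.18 to 0.30), a fold of 1.18, and centred on the macrophage markers the difference was 0.92. As deposited, this was the smallest difference among the 7 members that were higher in PDR. A larger difference was found for 31.4% of all tested genes, so that Ifi204 stood inside the bulk of the distribution.

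Mndal, named for its likeness to the human myeloid cell nuclear differentiation antigen, encodes a nuclear protein that slows cell growth. Its FPKM was 23.6 in PDR (2009 reads) and 24.2 in SKYD (2195 reads). The log2 difference was -0.04 with an interval that includes 0 (95% CI -0.12 to 0.05), and centring on the macrophage markers turned it to 0.65, scaling to the reads on genes to 0.01. Without that centring, a difference between the libraries was not detectable at this depth.

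Ifi207, a nuclear protein reported to raise transcription of cytokine genes in macrophages, was the member with the opposite direction. It had 9.63 FPKM in PDR (774 reads) and 16.8 FPKM in SKYD (1436 reads), and the log2 difference was -0.74 (95% CI -0.86 to -0.63). As a fold, Ifi207 was 1.74 times as high in SKYD (95% CI 1.60 to 1.91). Among tested genes, 89.4% had a difference above that of Ifi207. Of the members it shares the least sequence with other genes, and its promoter stretch holds the same core as those of Ifi213 and Ifi208. Centred on the macrophage markers, its difference was -0.06.

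Ifi209, Ifi211 and Ifi205 were abundant in both libraries and further apart than the members above, and of the 3 only Ifi209 passed the 2-fold threshold. Ifi209, a p200 gene of little-known function, had 61.3 FPKM in PDR (5111 reads) and 29.8 FPKM in SKYD (2638 reads). Its log2 difference was 1.02 (95% CI 0.95 to 1.09), and the lower end of that interval is under the threshold of 1. The fold was 2.06 (95% CI 1.97 to 2.16), and 7.17% of tested genes had a larger difference. Of the 8 members with a promoter sequence, it is the 1 without the core in that sequence. The first transcribed bases at the RefSeq start used for Ifi209 were not found in a transcript, as was so for Ifi208 and Ifi207.

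Ifi211, a short gene with 1785 exonic bases, had 61.2 FPKM in PDR (2566 reads) and 32.6 FPKM in SKYD (1456 reads). The log2 difference was 0.89 (95% CI 0.80 to 0.98), a fold of 1.88. Its close copy Ifi205, an interferon-induced nuclear protein studied in blood cell differentiation, had 36.4 FPKM in PDR (3575 reads) and 18.8 FPKM in SKYD (1958 reads), and the difference was 0.92, a fold of 1.94 (95% CI 1.84 to 2.05). The log2 intervals of this pair overlap each other, and that of Ifi209 overlaps both. Summing the reads of Ifi211 and Ifi205, which takes away any error in how shared reads were split between them, gave 6141 reads in PDR and 3414 in SKYD, a fold of 1.91 with a lower limit of 1.84. Ifi204 summed with Ifi211, which is the partner with the larger difference, had a fold of 1.36. These sums were chosen after the data were seen.

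Ifi203 encodes p203, a nuclear p200 protein. Its FPKM was 10.7 in PDR (1689 reads) and 7.05 in SKYD (1181 reads). The difference was 0.54 (95% CI 0.45 to 0.64), a fold of 1.52, which lay between those of Ifi204 and Ifi208. Centred on the macrophage markers, the difference of Ifi203 was 1.23, past 2-fold. Ifi203 and Mndal have the same promoter stretch, at RefSeq starts far apart from each other, and the intervals of their differences did not overlap.

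Ifi213 and Ifi208, the least abundant members and less studied than the others, moved in parallel. Ifi213 had 7.41 FPKM in PDR (1190 reads) and 3.79 FPKM in SKYD (648 reads), with a difference of 0.81 (95% CI 0.70 to 0.93). For Ifi208 the levels were 3.68 FPKM in PDR (454 reads) and 1.84 FPKM in SKYD (242 reads), and the difference was 0.72 (95% CI 0.56 to 0.88). As plain ratios of FPKM the fold was 1.95 for Ifi213 (95% CI 1.77 to 2.15), and the interval for Ifi208 ran from 1.70 to 2.34, around that of Ifi209. Scaled to the reads on genes, the folds were 2.02 for Ifi213, 2.07 for Ifi208, 2.01 for Ifi205 and 2.13 for Ifi209, and in log2(FPKM + 1) the 1 member past 2-fold was still Ifi209. The smaller log2 values of this pair reflect the 1 added to low FPKM, and at a pseudocount of 0.1 the difference of Ifi208 was 0.96.

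Other p200 genes of the region were read in the same way. Aim2, the sensor of the inflammasome, had 7.88 FPKM in PDR (648 reads) and 4.69 in SKYD (410 reads), a difference of 0.64 (95% CI 0.49 to 0.80). Ifi206 had 6.98 FPKM in PDR and 4.90 in SKYD, a difference of 0.44 (95% CI 0.27 to 0.60). Ifi214, which shares transcript sequence with Ifi209, was low, with 1.72 FPKM in PDR (327 reads) and 0.311 FPKM in SKYD (63 reads). Its difference was 1.05 (95% CI 0.92 to 1.17) and its fold 5.52 (95% CI 4.21 to 7.35), and it was tested only through its PDR level, since its mean FPKM was 1.01, so its 2-fold difference is no support for a direction. The pseudogene Ifi203-ps had 5 reads in PDR and 17 in SKYD. Ifi202b, which C57BL/6 mice are known to express weakly if at all, had 0 reads in either library, which allows up to 3 reads in each.

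**Figure D3:**
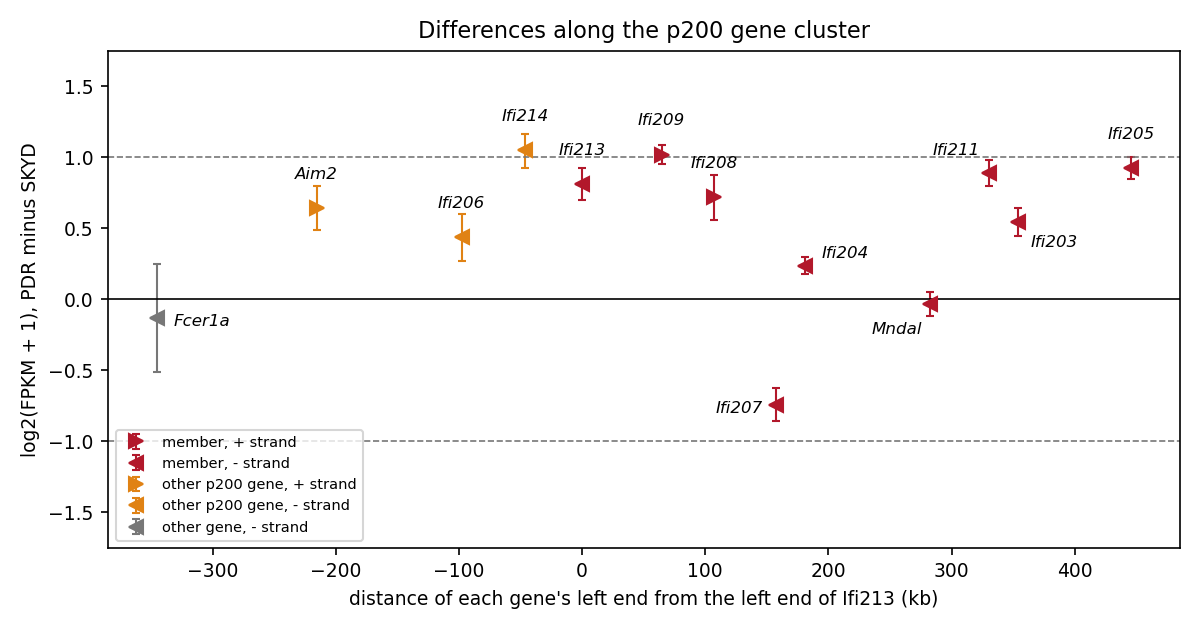
Difference in log2(FPKM + 1), PDR minus SKYD, of each tested gene within 500 kb of the cluster, against the distance in kb of its left end from that of Ifi213. Triangles point along the strand, bars are exact 95% intervals, dashed lines mark 2-fold. Ifi207, Ifi204 and Mndal lie below the other members, and Mndal turns positive after centring on the macrophage markers or scaling to the reads on genes.

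Ordered by left end, Ifi207, Ifi204 and Mndal follow each other with differences of -0.74, 0.24 and -0.04, and the other members were at 0.54 or more. Ifi211 comes before Mndal by right end in the table, and after it by the RefSeq starts used for the promoters. The order was noticed in the data and was not tested. Within 500 kb of the outermost members the table has 56 genes, namely the 9 members, 5 other p200 genes and 42 further genes. Of those 42, 34 had no read in either library and 1 was tested. That gene was Fcer1a, a chain of the IgE receptor, with 2.47 FPKM in PDR (58 reads), 2.81 FPKM in SKYD (70 reads) and a difference of -0.13. Nearly all reads of the region were thus on p200 genes, though a gene listed at 0 need not be silent where the counting is not known.

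Ifi204 was used to look for genes with a like pattern, by distance in log2(FPKM + 1) over the 2 libraries. The nearest were Mrpl12 (54.6 FPKM in PDR and 45.8 in SKYD), Nip7 (56.5 and 47.5) and Gm7336 (55.4 and 44.7). With 2 libraries, likeness means only a similar level and difference.

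Lists of genes around the p200 proteins are described by counts and medians, to be read beside the members' 0.72 and the -0.0035 of all tested genes, and their counts past 2-fold beside the 7.38% (PDR) and 6.91% (SKYD) of all tested genes. Interferon ligands came first in the pathway and were hardly read. Of 14 ligand genes, 12 had no read in either library and 0 were tested. Ifng had 39 reads in PDR and 6 in SKYD, and Ifnb1 had 0 reads in PDR, which allows up to 3, and 12 in SKYD.

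All 12 receptors and transducers of interferon signals were tested, 9 higher in PDR and 3 lower, with 3 past 2-fold higher in PDR and a median of 0.56, or 1.25 centred on the macrophage markers. Ifngr1, a chain of the interferon-gamma receptor, had the largest difference towards SKYD at -0.55, and Ifnar2, of the type I receptor, had -0.31. Irf1, a transcription factor that binds the response element printed for the members, had 56.6 FPKM in PDR and 15.6 FPKM in SKYD, a difference of 1.79 (95% CI 1.71 to 1.87). Apart from Ifi207, the members' differences lay inside the range of this list.

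Interferon-induced antiviral genes are targets of the same signals as the p200 genes. Of 28 listed, 24 were tested, 21 were higher in PDR and 3 lower, 7 were past 2-fold higher in PDR and 0 past 2-fold higher in SKYD, and the median of 0.62 was close to that of the members. Centred on the macrophage markers these medians were 1.31 and 1.41. Of the 7 genes, 1, Mx1, was tested only through its PDR level. The same holds for Parp14, at 0.64, which helps to set the median. The count of genes higher in PDR and the median thus rest in part on the filter. With no filter on FPKM the median of the antiviral genes was 0.56. The most abundant antiviral genes moved little or went the other way. Ifitm3, which blocks virus entry, had -0.55, Ifi27l2a had 0.40 and the tetherin gene Bst2 had -0.10. Ifit3, which binds into complexes on viral RNA, had the largest difference at 1.87.

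Cytosolic nucleic acid sensing, the task of several p200 proteins, had 19 tested genes of 24 listed, 15 higher in PDR and 4 lower. Past 2-fold higher in PDR were 3, and the median was 0.37, or 1.06 centred on the macrophage markers. Mb21d1, at 0.17, is among the 15 but was tested only through its PDR level. With no filter on FPKM the median was again 0.37. Samhd1, which breaks down nucleotides, had 1.36, Zbp1, a sensor of Z-form nucleic acid, had 1.31 and Unc93b1, a carrier of Toll-like receptors, had 0.49. Rnaseh2c, a subunit of RNase H2, had -0.48. Tmem173, the STING gene through which p204 signals, was picked after its values were seen. It had 54.3 FPKM in PDR and 35.9 FPKM in SKYD, a difference of 0.58 (95% CI 0.50 to 0.66).

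Of the 9 genes of the AIM2 inflammasome, 8 were tested, 5 higher in PDR and 3 lower, 0 past 2-fold, with a median of 0.43, or 1.12 centred on the macrophage markers. Casp1, the caspase that Aim2 activates, had 0.89, about as much as Ifi211. Pycard, the adaptor between them, had -0.36 and the target cytokine Il1b had 0.33.

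The growth control partners of p200 proteins, which include the Id genes, whose proteins p204 binds, and genes of the Rb and E2F families, were split. Of 11 tested genes of 15 listed, 5 were higher in PDR and 6 lower, 2 were past 2-fold higher in SKYD, and the median was -0.12, or 0.57 after centring on the macrophage markers. Cdkn1a, the p21 inhibitor of the cell cycle, had -1.91 (95% CI -1.99 to -1.83). Id2 had -0.90, Id3 had -0.52 and E2f1 had 0.66. Genes of this list thus lay on both sides of 0, as all tested genes did.

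**Figure D4:**
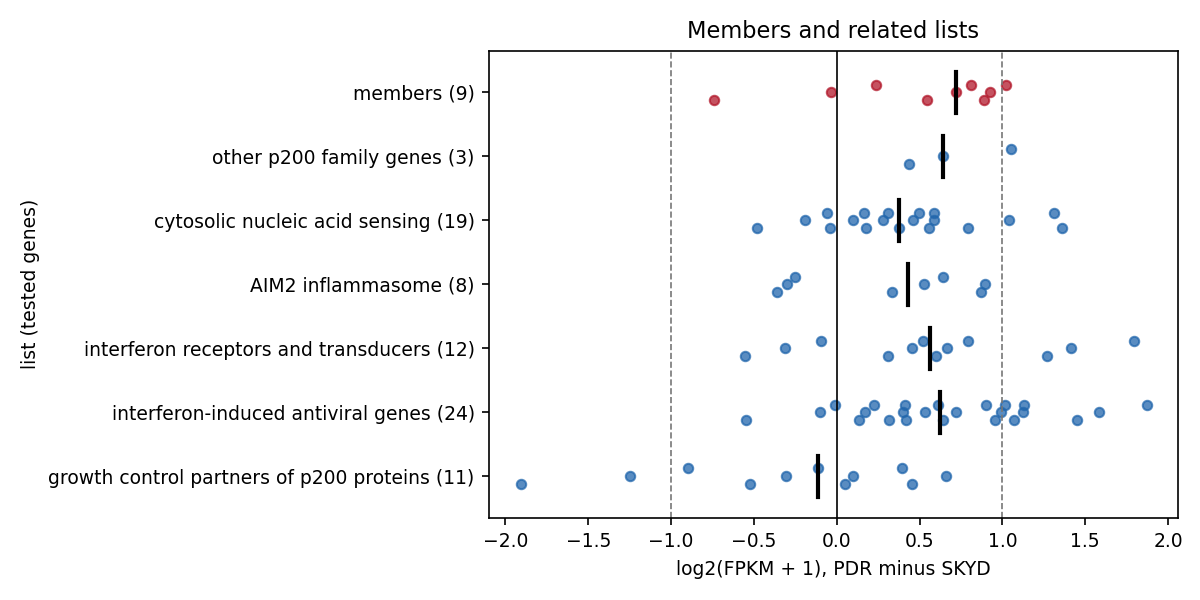
Difference in log2(FPKM + 1), PDR minus SKYD, of each tested gene in the members (red) and in 6 related lists (blue), with the number of tested genes in parentheses, black bars at the medians and dashed lines at 2-fold. The members' median of 0.72 stands near the 0.62 of the antiviral genes, which rests in part on a gene tested only through PDR. The median of -0.12 of the growth control partners, which becomes 0.57 after centring on the macrophage markers, stands left of 0.

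The makeup of the pools was examined because p200 genes are expressed in many blood cells. The sort markers were present, with Adgre1 (F4/80) at 87.3 FPKM in PDR and 93.3 FPKM in SKYD and Itgam (CD11b) at 8.84 and 14.4. None of 16 macrophage markers was at 0. Yet 14 of them were lower in PDR, 6 more than 2-fold (including Cd163, which was tested only through its SKYD level), their median was -0.69, and their summed FPKM was 25068 in PDR and 48454 in SKYD, most of it Lyz2. Most members thus differed in the direction opposite to the macrophage markers, and in bulk RNA fewer cells of a type and less RNA per cell cannot be told apart. Apoe, the disrupted gene, had 345 FPKM in PDR (17336 reads) and 67.7 FPKM in SKYD (3618 reads), and whole-gene values carry no exon information.

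Markers of other cells also moved between the libraries. Of 8 listed B cell markers 7 were tested, all 7 more than 2-fold higher in PDR at a median of 2.25. The list summed to 1722 FPKM in PDR and 390.3 in SKYD, led by Cd79b by mean FPKM, though not in SKYD alone. All 8 T cell markers were more than 2-fold higher in SKYD, with a median of -2.38 and sums of 184 and 1271 FPKM. This list was led by Cd8b1 by mean FPKM of the libraries, though not in PDR alone. NK cell markers had a median of 1.20, which is the value of Prf1, with 6 of 7 tested genes higher in PDR. Their sums were 444 and 208 FPKM, led by Gzma. Of those 6 genes, 2, Prf1 and Klra8, were tested only through PDR, so that this count and median are no support for a direction. Lymphocytes mostly lack F4/80 and should be few after the sort, yet their markers were read in both libraries at the sums given. The B and T cell shifts accompany the members' differences, and the part of lymphocytes in those differences was not tested.

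All 8 hepatocyte markers were past 2-fold higher in PDR, at a median of 1.75 and with sums of 2176 and 736 FPKM in PDR and SKYD, led by Apoa2. Hepatocytes carry neither surface protein of the sort, which should leave them out, yet all 8 markers were read in both libraries. Of 8 monocyte markers, 7 were higher in PDR. Their median was 0.39, with sums of 5708 and 3294 FPKM, led by Chil3 by mean FPKM, though not in SKYD alone. Neutrophil markers had 6 of 8 higher in PDR, a median of 0.63 and sums of 4838 and 3721 FPKM, led by S100a9. The medians of the monocyte and neutrophil lists were below that of the members, while some of their genes were above every member, such as Ly6c2 at 1.49, Ltf at 1.17 and Ly6g at 1.14, which were named after their values were seen. Dendritic cell markers had 1 of 6 tested genes higher in PDR, a median of -0.44 and sums of 294 and 418 FPKM, led by Bst2. Of the 5 lower genes, 2, Siglech and Xcr1, were tested only through SKYD, so that this count and median are no support for a direction. Endothelial markers summed to 5.13 and 3.36 FPKM, with Pecam1 the 1 tested gene at 0.45. Smooth muscle markers summed to 3.15 and 2.92 FPKM, led by Acta2 by mean FPKM, though not in PDR alone. Of the smooth muscle markers, Myh11, Tagln, Cnn1 and Lmod1 were at 0. No list but that of smooth muscle had a marker at 0 in both libraries, and the part of these cells in the members' values was likewise not tested.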

How the data were processed

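RNA from sorted aortic macrophages was measured in 1 pooled library for PDR and 1 for SKYD. The authors trimmed and filtered paired-end reads, aligned them with TopHat 2.0.9 and Bowtie 2.0.6, counted them per gene with HTSeq 0.6.1 and deposited FPKM. The submitters' processing notes also list DESeq 3.18.1 and the build mm9. The positions in the table match GENCODE M21 of GRCm38, in which 98.3% of 54409 shared genes, and all 9 members, have the same start and end. The HTSeq mode, the strand setting and the treatment of reads with several matches are not given in the sources used here.

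Library sizes were set from the steps of FPKM times gene length, and the largest distance of a recovered read number from a whole number was 0.000159. Shared sequence was counted in GENCODE M21 transcripts. Intervals are Clopper-Pearson limits on the split of a gene's reads, and Poisson limits for levels. No test across libraries was made. A protein comparison was not run. A further promoter motif that was searched is not reported here. Besides the members, the genes named were other tested p200 genes, tested neighbours and the 3 genes nearest to Ifi204. From each pathway list came the 3 most abundant genes by mean FPKM and the largest difference each way. From each cell type list came the most abundant gene by mean FPKM. The sort markers, Apoe, some of the genes at or near 0 reads or tested through 1 library, and Tmem173, Ly6c2, Ltf and Ly6g were added. The members and lists were chosen with earlier results of these data known. Alternatives were pseudocounts of 0.1 and 0.01, TPM, centring on the median, on a mean trimmed by 30% at each end or on the macrophage markers, a 4-fold threshold, no filter, a mean FPKM of at least 5, and protein-coding genes, and, added after the data were seen, scaling to the reads on genes and sums of reads over copies. Steps were tested on simulated data. The tools were Python 3.11.15 with scipy 1.17.1, pandas 2.3.3, numpy 2.4.6 and, for plots, matplotlib 3.10.9.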

Additional observations from a re-analysis of the deposited data

How the results depend on the processing

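Under both smaller pseudocounts, TPM, centring on the median and centring on the trimmed mean, all 9 members kept their direction. Scaling to the reads on genes, added after seeing the data, turned Mndal from -0.04 to 0.01 and kept the direction of the other 8, with 817 (PDR) and 672 (SKYD) of all tested genes past 2-fold. Centring on the macrophage markers moved every difference up by the size of their median of -0.69, so that any value between -0.69 and 0 became positive. Members more than 2-fold higher in PDR then numbered 6 in place of 1, and all tested genes past 2-fold numbered 2779 for PDR (26.7%) and 309 for SKYD (2.97%) in place of 767 and 719. The medians became 1.41 for the members, 1.33 for other p200 genes, 1.06 for nucleic acid sensing, 1.12 for the AIM2 inflammasome, 1.25 for receptors and transducers, 1.31 for antiviral genes and 0.57 for growth control partners. Pseudocounts of 0.1 and 0.01 gave a median of 0.91 each for the members, and 0.80 and 0.82 for antiviral genes, since less is added to low FPKM. At 4-fold, 0 members and 194 (PDR) and 216 (SKYD) of all tested genes passed. With a mean FPKM of at least 5, fewer genes were tested and 464 and 373 passed, and among protein-coding genes 542 were higher in PDR and 473 in SKYD. With no filter on FPKM, among the 21718 genes with a read in either library, the share past 2-fold was 3.94% for PDR and 3.92% for SKYD, and the AIM2 inflammasome had a median of 0.33. Without Ifi204 the fold of the summed FPKM was 1.59. Summing reads with the partner that shares most sequence, chosen after seeing the data, moved the fold of Ifi204 from 1.18 to 1.36, and the folds of Ifi205, Ifi209 and Ifi211 stayed within their intervals. No paired analysis was possible because each group has 1 library. The fewest reads of a member were 242, for Ifi208 in SKYD. Loss of reads shared between copies and the spread between mice were not measured.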
